A study of Rattus norvegicus with 8 samples.

Results

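The interleukin-6 (IL-6) family signalling genes described here are the 9 genes Il6, Il6r, Il6st, Osm, Osmr, Lif, Lifr, Socs3 and Stat3, found by symbol among the 32623 genes of the count tables. All 9 were measured in each of the 8 libraries. The cells came from the spinal cord of female Wistar rats of 8 weeks of age, taken 7 days after surgery and sequenced with droplet-based 10x Genomics libraries. A weight of 10 g had been dropped on the exposed cord from 3 heights that rose from the mild over the moderate to the severe group. Sham animals had the laminectomy alone, an opening of the spine that the injured animals had as well. Each group had 2 libraries, called 1 and 2 here. The paper that reported the data speaks of 8 sequenced spinal cords, which would be 1 cord per library. The sample labels do not say whether a library was 1 animal or a pool. The p-values between groups measure the spread between these libraries, which may be technical in part. Those between cell types come from a fit with the library as a term. They measure the spread that remains once differences between whole libraries are removed, and the types share the same 8 libraries.

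IL-6 family cytokines are small secreted proteins that bind a receptor on the receiving cell and share the chain gp130, which Il6st encodes. Interleukin 6 first binds its own receptor Il6r. Oncostatin M (Osm) binds the pair of Osmr and gp130, and leukemia inhibitory factor (Lif) binds the pair of Lifr and gp130. Whether rat oncostatin M also binds the pair of Lifr and gp130 cannot be read from these counts. The bound receptors activate Janus kinases, which phosphorylate the transcription factor Stat3, and Stat3 in turn switches on Socs3, an inhibitor that limits the same pathway. In the injured spinal cord the family is known for its part in the inflammatory response and in the reaction of glia.

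The promoter of Il6 is shown because the control of this ligand by NF-kB and C/EBP proteins is a textbook case. RefSeq promoters of the rat genome GRCr8 were held here for 7 of the 9 genes, not for Osm and Lif. The 250 bases before the start site were searched on both strands for the STAT motif TTCNNNGAA, the C/EBP motif TTGNNCAA, the cAMP response element TGACGTCA and the NF-kB motif, which is GGGA and TTTCC with 1 base of any kind between them. Among the 7 promoters, the 1 of Il6 held matches. Its window lies on the minus strand at chr4:5894576-5894825 and is printed with the 3 matches in capitals, in the order cAMP response element, C/EBP and NF-kB, which begin 162, 152 and 68 bases before the start site and do not overlap.
Il6 promoter: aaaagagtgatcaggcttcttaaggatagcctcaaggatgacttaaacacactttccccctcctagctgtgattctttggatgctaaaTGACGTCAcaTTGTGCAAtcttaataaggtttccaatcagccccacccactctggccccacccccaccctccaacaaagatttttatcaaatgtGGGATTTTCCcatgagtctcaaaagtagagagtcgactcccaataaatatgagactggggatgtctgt
Of the 33469 promoters of this length, 1.59% held the cAMP response element, 5.25% the C/EBP motif, 0.314% the NF-kB motif and 7.67% the STAT motif. The STAT motif had no match in the 7 windows, Socs3 included, which says only that these letters are not in them.

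The tables held 68658 cells, of which 55455 were kept, 2336 to 10016 per library, with 23535282 to 99689125 unique molecular identifiers (UMIs, tags that count RNA molecules) in them. The median UMI number of a kept cell ran from 2745 in sham 1 to 10836 in severe 2, and pairs of libraries shared 5 to 40 cell barcodes. Cell types are named after marker genes of 25 clusters, and each name stands for cells that are like that type by these markers. Sham 1 stood apart: neutrophils were 52.5% of its kept cells, 0.128% of those of sham 2 (3 cells) and 2.78% to 30.1% of those of the injured libraries. The summed level of the neutrophil markers in the macrophages/microglia of sham 1 was 7018 counts per 1000000 (CPM), against 231 to 1059 in the other 7 libraries. A level in CPM here is the number of UMIs of a gene per 1000000 UMIs of all genes in the cells of a type in 1 library, and a library counts for a type where it held at least 20 of its cells. Of the kept cells, 26358 (47.5%) were macrophages/microglia, 10525 (19.0%) neutrophils, 4104 (7.40%) oligodendrocyte precursors, 3786 (6.83%) oligodendrocytes, 2277 (4.11%) fibroblasts and 431 (0.777%) endothelial cells. The name macrophages/microglia includes clusters that scored as monocytes when these were named apart, with 13824 cells. Since the counts come from transcript ends and genes differ in how well they are caught, levels are compared between cell types and groups, not between genes.

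The kept cells held 30418 UMIs of Osm, 1778 of Il6 and 315 of Lif among the ligands. Of the receptors they held 11003 of Il6r, 6426 of Il6st, 1226 of Osmr and 445 of Lifr. The transducer Stat3 had 44852 and the inhibitor Socs3 had 5036. Lif and Lifr were thus counted in few molecules, and their levels per library carry large counting errors.

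Osm, the ligand of the oncostatin M receptor, was highest in neutrophils and next in macrophages/microglia. Its level in neutrophils was 317 CPM in sham 1, 324 and 242 in mild libraries, 1004 and 850 in moderate libraries and 373 and 169 in severe libraries, while sham 2 had too few neutrophils for a level. The 2 moderate libraries were higher than the other 5, whose groups overlapped, and the mean was 468 ± 323 CPM (SD, n = 7). In macrophages/microglia the level of Osm was 31.4 and 67.2 CPM in the sham libraries, 86.6 and 59.3 in mild, 76.6 and 50.2 in moderate and 131 and 54.2 in severe libraries. The mean was 69.6 ± 30 CPM (SD, n = 8), severe 1 was highest, sham 1 was lowest, and each injured group overlapped the sham group. Dendritic cells followed with 11.8 ± 9.2 CPM (SD, n = 6), and the ranges of neutrophils, macrophages/microglia and dendritic cells did not overlap. In fibroblasts Osm lay at 0 to 5.59 CPM and in oligodendrocyte precursors at 0 to 4.89 CPM. Both overlapped the range of erythrocytes, 0.693 to 4.88 CPM in 3 libraries, cells that were taken to lack Osm.

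Neutrophils and macrophages/microglia differed in how much of the counted Osm they held. Macrophages/microglia, the more numerous and the deeper cells, held 75.2% of the Osm UMIs of all kept cells (22886) and neutrophils 22.6% (6880). Within sham 1 the neutrophils held 92.8%, and in the other 7 libraries the macrophages/microglia held 72.4% to 99.5%. A neutrophil had a median of 1410 UMIs and a macrophage or microglial cell 11223, so that shares of cells with an Osm UMI, 34.9% and 38.7%, are not comparable as they stand. After every cell was thinned to 500 UMIs, which left out no cell, 15.9% of neutrophils (95% Wilson interval 15.2% to 16.6%) and 3.68% of macrophages/microglia (3.46% to 3.91%) had an Osm UMI. Erythrocytes, which were taken to lack the gene and had a median of 6612.5 UMIs, had 1 in 0.166% of cells (0.0454% to 0.602%), a background that free RNA in the droplets can give. Severe 2 gave 81.3% of the erythrocytes, so this background does not stand for every library. All such intervals cover counting error only.

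Il6, the family's name-giving ligand, was highest on average in fibroblasts. Its level in fibroblasts was 62.8 CPM (296 UMIs) in sham 1 and 9.41 (1 UMI among 28 cells) in sham 2. The injured libraries had 12.4 and 31.5 CPM after mild, 11 and 61.8 after moderate and 8.82 and 6.20 after severe injury. The 2 severe libraries were the lowest, the sham libraries spanned the range of the mild and the moderate ones, and the mean was 25.5 ± 24.0 CPM (SD, n = 8). In macrophages/microglia Il6 was at 4.74 and 11.4 CPM in the sham, 1.38 and 0.941 in mild, 0.801 and 0.939 in moderate and 2.28 and 6.28 in severe libraries. The 4 mild and moderate libraries lay below both sham libraries, and the severe group overlapped the sham group. Pooled over libraries, macrophages/microglia held 52.8% of the Il6 UMIs (939) and fibroblasts 40.4% (719), but severe 2 alone gave 402 of these 939. In sham 1, both moderate libraries and severe 1 the fibroblasts held more of the Il6 UMIs, and the share of macrophages/microglia ran from 7.36% in sham 1 to 98.4% in sham 2. Without severe 2 the pooled order turned, with 537 UMIs in macrophages/microglia and 683 in fibroblasts. Sham 1 in turn gave 296 of the 719 fibroblast UMIs and 27 of the 939 of macrophages/microglia. Leaving out sham 1 instead would widen the lead of macrophages/microglia, so the pooled order depends on single libraries. Endothelial cells had no Il6 UMI in sham 1 and sham 2, which allows up to 1.95 and 10.6 CPM by 3 counts, and had 19.4 and 10.1 CPM (15 and 13 UMIs) in severe 1 and 2. The mild and moderate libraries had fewer than 20 endothelial cells each, and this contrast was not tested. Both severe endothelial values lay above the fibroblast values of the same libraries, and the ranges of fibroblasts overlapped those of endothelial cells and of macrophages/microglia.

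Lif, the third ligand, was rare in all cell types. Macrophages/microglia held 167 of its 315 UMIs (53.0%), oligodendrocyte precursors 84 (26.7%) and fibroblasts 44. In oligodendrocyte precursors there was no Lif UMI in the sham libraries, where 3 counts would be 4.89 and 4.11 CPM, and the level was 0.608 and 0.914 CPM in the mild, 2.24 and 2.87 in moderate and 0.736 and 0.650 in severe libraries. All injured values lay under these limits, which hold for each sham library alone and not for the 2 together. In the test between groups described below, Lif was called in no injured group against the sham group. It was called in 0 of the alternatives as well, and its log2 fold change kept its sign. The moderate libraries had 20 and 46 UMIs and lay above the other injured libraries.

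**Figure D1:**
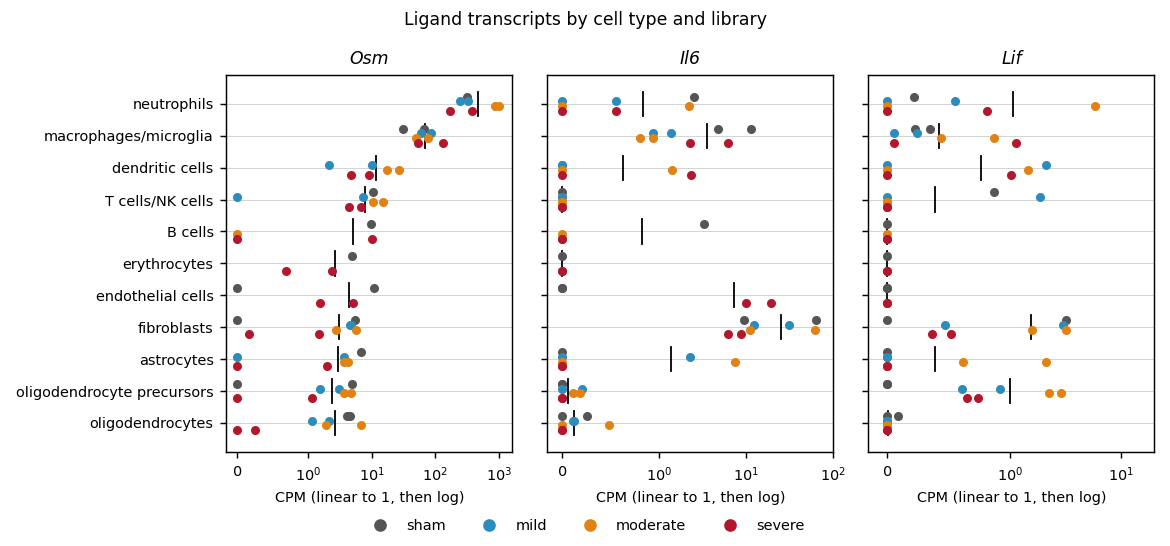
Levels of the ligands Osm, Il6 and Lif in each cell type, in CPM on an axis that is linear to 1 and logarithmic above, with 1 point per library coloured by group and a black line at the mean over libraries. Osm is highest in neutrophils (mean 468 CPM) and macrophages/microglia (69.6 CPM), and Il6 is highest on average in fibroblasts (25.5 CPM), whose range overlaps those of endothelial cells and macrophages/microglia.

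Osmr, which binds oncostatin M together with gp130, was found in fibroblasts and endothelial cells and hardly in the cells with Osm. Its level in fibroblasts was 53.7 and 18.8 CPM in the sham libraries, 11.5 and 16.5 in mild, 11.5 and 19.4 in moderate and 23.6 and 22.4 in severe libraries. Sham 1 was highest, sham 2 rested on 2 UMIs, and the injured libraries all lay below sham 1 and on both sides of sham 2. In endothelial cells, counted in 4 libraries, Osmr was at 44.8 and 21.2 CPM in the sham and 20.7 and 15.5 in severe libraries. Both severe values lay below both sham values, sham 2 rested on 6 UMIs, and the groups were not tested. Fibroblasts held 62.3% of the Osmr UMIs (764), and oligodendrocyte precursors 236 of them at 6.85 ± 4.57 CPM (SD, n = 8). The 26358 macrophages/microglia held 17 Osmr UMIs, the 10525 neutrophils 4, and dendritic cells and B cells none. Thinned to 500 UMIs, 1.05% of fibroblasts (0.709% to 1.56%) and 1.62% of endothelial cells (0.789% to 3.31%) had an Osmr UMI, as did 0 of 26358 macrophages/microglia and 0 of 1208 erythrocytes. Unthinned, the shares were 22.7% of fibroblasts and 20.9% of endothelial cells.

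Il6st, which encodes the shared chain gp130, was highest in endothelial cells and fibroblasts, whose ranges overlapped. Its level in endothelial cells was 114 and 49.5 CPM in the sham and 54.4 and 83.8 in severe libraries, and the groups overlapped. In fibroblasts it was 94.7 CPM in sham 1, 39.8 and 72.0 in mild, 39.1 and 66.5 in moderate and 20.5 and 27.7 in severe libraries. Sham 2, with 28 fibroblasts, had no UMI of it, and the severe libraries were the lowest of the other 7. Oligodendrocytes had 25.6 ± 13.2 CPM (SD, n = 8) and oligodendrocyte precursors 16.5 ± 5.68 CPM (SD, n = 8). In macrophages/microglia Il6st was at 15.4 and 25.7 CPM in the sham, 3.79 and 7.13 in mild, 6.51 and 5.57 in moderate and 1.40 and 3.11 in severe libraries, so that all 6 injured libraries lay below both sham libraries.

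Il6r, the receptor that binds interleukin 6, was found in immune cells. In neutrophils its level was 74.0 CPM in sham 1, 76.7 and 73.0 in mild, 52.0 and 68.4 in moderate and 80.2 and 48.9 in severe libraries. In macrophages/microglia it was 33.9 and 32.2 CPM in the sham, 22.5 and 22.6 in mild, 28.0 and 30.9 in moderate and 35.7 and 20.3 in severe libraries. The 7 neutrophil values all lay above the 8 of macrophages/microglia, while the 2 severe libraries lay at both ends of the latter. B cells (56.7 ± 24.1 CPM, SD, n = 4) and dendritic cells (44.8 ± 18.0 CPM, SD, n = 6) had mean levels between these. Macrophages/microglia held 78.2% of the Il6r UMIs (8607). Lifr, the receptor of Lif, was highest on average in endothelial cells, whose range overlapped that of B cells, at 35.7 and 31.8 CPM in the sham (55 and 9 UMIs) and 7.77 and 3.88 in severe libraries (6 and 5 UMIs). The severe libraries lay below the sham libraries, which was not tested since the other groups had too few endothelial cells. Oligodendrocytes held 182 of the 445 Lifr UMIs (40.9%) at 3.12 ± 2.91 CPM (SD, n = 8).

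**Figure D2:**
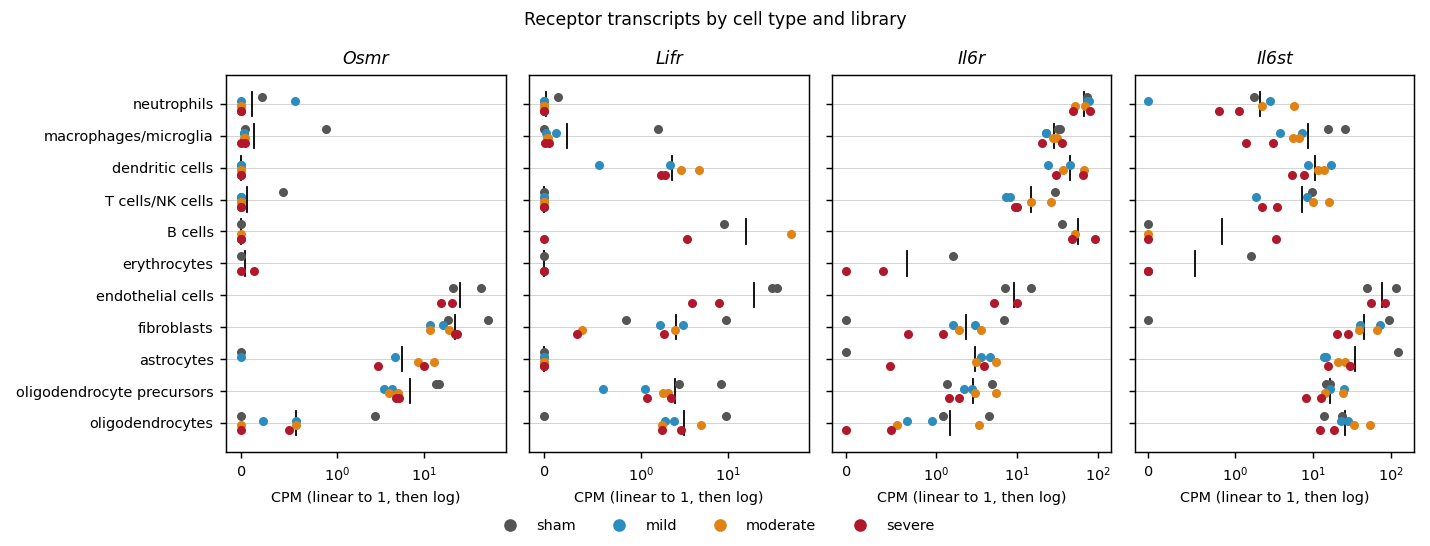
Levels of the receptor genes Osmr, Lifr, Il6r and Il6st in each cell type, in CPM on an axis that is linear to 1 and logarithmic above, with 1 point per library coloured by group and a black line at the mean over libraries. Osmr lies in fibroblasts and endothelial cells and near 0 in macrophages/microglia and neutrophils, while Il6r is highest in neutrophils (67.6 CPM on average).

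Osmr and Il6st, the pair named above for oncostatin M, were counted in the same cell most often in endothelial cells and fibroblasts. UMIs of Osmr and of Il6st were found together in 61 of 431 endothelial cells (14.2%), in 277 of 2277 fibroblasts (12.2%), in 17 of 888 astrocytes (1.91%), in 40 of 4104 oligodendrocyte precursors (0.975%) and in 5 of 26358 macrophages/microglia (0.0190%). Lifr and Il6st were together in 44 endothelial cells (10.2%) and 52 oligodendrocytes (1.37%). Il6r and Il6st were together in 567 macrophages/microglia (2.15%), 27 endothelial cells (6.26%) and 8 neutrophils (0.0760%). These shares move with the UMIs per cell, whose median was 8444 in endothelial cells, 13715 in fibroblasts and 1410 in neutrophils, and a cell without a UMI may still carry the chain. Among fibroblasts, 24 had both Osm and Osmr, of 81 with an Osm UMI.

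Socs3, the inhibitor that STAT3 activates, was highest in neutrophils, with 32.5 ± 13.7 CPM (SD, n = 7). Its values there were 47.3 CPM in sham 1, 27.8 and 50.5 in mild, 26.0 and 39.3 in moderate and 24.5 and 12.2 in severe libraries, and the severe libraries were the lowest. In macrophages/microglia, which held 60.0% of its UMIs (3024), Socs3 was at 10.9 and 6.36 CPM in the sham, 6.45 and 7.41 in mild, 13.3 and 12 in moderate and 4.21 and 8.28 in severe libraries. The moderate libraries were the highest of these, and the other groups overlapped. Stat3, the transcription factor of the pathway, was found in every type but hardly in erythrocytes, which had 1.3 ± 1.7 CPM. Its mean level was 163 ± 39.0 CPM in dendritic cells (SD, n = 6), 147 ± 48.7 in oligodendrocytes (n = 8), 134 ± 43.1 in oligodendrocyte precursors (n = 8), 133 ± 40.5 in neutrophils (n = 7), 89.0 ± 27.1 in fibroblasts (n = 8) and 67.5 ± 18.9 in macrophages/microglia (n = 8). In the order of all types, the ranges of neighbours overlapped except for macrophages/microglia over erythrocytes.

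To test these differences between types, UMIs were summed per type and library, and each type was compared with macrophages/microglia by edgeR's quasi-likelihood test, with Benjamini-Hochberg adjustment over all genes tested and a threshold of 0.05. Lif did not pass the filter on low counts and 8 members were tested. In fibroblasts 7 of the 8 differed, where 61.7% of all genes tested did. Osmr was higher by 7.60 ± 0.33 on the log2 scale (SE, adjusted p = 5.81e-28), Lifr by 3.56 ± 0.50 (adjusted p = 1.8e-08), Il6 by 2.68 ± 0.47 (adjusted p = 1.59e-06) and Il6st by 2.33 ± 0.29 (adjusted p = 2.44e-10). Osm was lower, with a log2 fold change of -5.16 ± 0.36 (adjusted p = 2.96e-20), as was Il6r with -3.97 ± 0.26 (adjusted p = 2.74e-21), and Socs3 with -0.84 ± 0.33 (adjusted p = 0.0229) was no longer called in 9 of 15 alternatives. In endothelial cells 5 of the 8 differed (45.1% of all genes), with Osmr higher by 7.31 ± 0.40, Lifr by 6.44 ± 0.55 and Il6st by 3.2 ± 0.35 (adjusted p = 3.02e-23, 2.32e-14 and 8.7e-12), and with Osm and Il6r lower.

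In neutrophils 5 of 8 members differed from macrophages/microglia, against 67.8% of all genes tested. Osm was higher by 2.54 ± 0.29 on the log2 scale (adjusted p = 2.08e-11), Socs3 by 2.09 ± 0.34 (adjusted p = 1.84e-07), Il6r by 1.5 ± 0.22 (adjusted p = 1.24e-08) and Stat3 by 1.23 ± 0.18 (adjusted p = 1.86e-08). Il6st was lower, with -1.53 ± 0.50 (adjusted p = 0.00552), a call that was lost without sham 1 (adjusted p = 0.0521). Without sham 1, which held 4822 of the neutrophils, Osm was still higher by 2.33 (adjusted p = 1.68e-10). Nearly all neutrophils of the injured libraries came from a cluster of 5642 cells with a median of 924 UMIs, led by G0s2, Cxcl2 and Il1b, and without that cluster Osm was higher by 2.38 (adjusted p = 2.33e-07). That fit kept the neutrophils of 4 libraries, 4780 cells of sham 1 and 21 to 28 of moderate 1, moderate 2 and severe 2, so that it rests on few cells outside sham 1. In oligodendrocyte precursors 6 of 8 differed (68.1% of all genes), with Osmr higher by 5.41 ± 0.33 and Lifr by 3.46 ± 0.46 (adjusted p = 1.81e-21 and 4.17e-09). Osm, Il6r, Il6 and Socs3 were lower there, and Socs3 was called in 12 of 15 alternatives (adjusted p up to 0.161). In T cells/NK cells 4 of 8 differed (53.4% of all genes). Osm and Il6r were lower, at log2 fold changes of -3.49 ± 0.41 and -1.11 ± 0.27 (adjusted p = 4.66e-11 and 0.000399), and Stat3 was higher by 0.57 ± 0.19 (adjusted p = 0.00838). Of 15 alternatives, the Stat3 call held in 10 (adjusted p up to 0.117) and the Il6r call in 14 (up to 0.0756). The Il6 call in T cells/NK cells rests on no UMI in the 7 libraries with at least 20 of these cells, so no fold is given.

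The injured groups were compared with the sham group and the severe with the mild group within macrophages/microglia, fibroblasts and oligodendrocyte precursors, 3 of the types with at least 20 cells in all 8 libraries. In macrophages/microglia 7 members were tested, since Osmr and Lifr did not pass the filter. Il6 fell in the mild against the sham group, by 2.78 ± 0.66 on the log2 scale (adjusted p = 0.0487), the 1 of 7 members called where 6.3% of all genes tested were. In the moderate against the sham group none of the 7 was called by edgeR (1.6% of all genes), while DESeq2 called 2 and 2 had an unadjusted p under 0.05, and the log2 fold change of Il6 was -3.23 ± 0.67 (adjusted p = 0.0616). Il6st fell in the severe against the sham group, by 2.68 ± 0.54 (adjusted p = 0.0313), again the 1 of 7 called (7.61% of all genes). In the severe against the mild group none was called by edgeR (2.34% of all genes), 1 was by DESeq2, and 2 had an unadjusted p under 0.05. The 1 called by DESeq2 was Il6, which was higher in both severe than in both mild libraries. Il6 was called in 5 of 15 alternatives there, with its sign kept. The shares of all genes are for edgeR's adjusted p, and those for DESeq2 or an unadjusted p are not given here. Osm had log2 fold changes of 0.61, 0.37 and 1.33 in the mild, moderate and severe against the sham group (adjusted p = 0.472, 0.721 and 0.154).

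Both calls depended on the setting. Over 15 alternatives the fall of Il6 was called in 6, with adjusted p from 0.000455 to 0.291, and it was lost when any of the libraries but sham 1 was left out, with the replicate block, and without the clusters that scored as monocytes. The fall of Il6st was called in 8 of 15, with adjusted p from 4.15e-05 to 0.142, and it was lost without the monocyte-scored clusters and without any 1 of the 6 injured libraries. The log2 fold change kept its sign in all 15 for both, between -3.32 and -1.75 for Il6 and between -3.49 and -1.52 for Il6st.

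Clusters of macrophages/microglia were not shared evenly among groups, and the pooled levels of Il6 and Il6st differed between these clusters. Cluster 10 held 40.5% of the macrophages/microglia of sham 1 and 77.0% of those of sham 2 but at most 0.808% of those of an injured library. Clusters 7 and 14 held 80.1% and 14.5% of those of severe 1 and 62.9% and 32.3% of those of severe 2. Summed over all libraries, Il6 was at 14.8 CPM in cluster 14 and 11.8 in cluster 10, with 3.1 in cluster 8 and at most 1.5 in each of the others. Il6st was at 28.3 CPM in cluster 10, 10.9 in cluster 0, 10.5 in cluster 8 and 6.7 in cluster 14, with at most 2.4 in the others. Severe 2 gave 86.9% of the cells of cluster 14, and sham 2 gave 85.1% of those of cluster 10. The pooled level of either cluster thus rests mainly on 1 library, and differences between clusters were not tested. Fewer cells of a cluster and a lower level within it cannot be told apart for cluster 10, since the injured libraries had few of its cells. Within cluster 0, which mild, moderate and sham 2 libraries shared, Il6st was at 8.31 and 11.7 CPM in the mild, 12.8 and 8.52 in moderate and 11.3 in the sham 2 library, and the ranges overlapped. This covers cluster 0 alone. Severe 1 had 0 cells in it and severe 2 had 8, so these values do not bear on the called fall of Il6st in the severe group. Both sham libraries and the mild and moderate ones also shared clusters 1 and 8, whose levels by library are not given here.

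**Figure D3:**
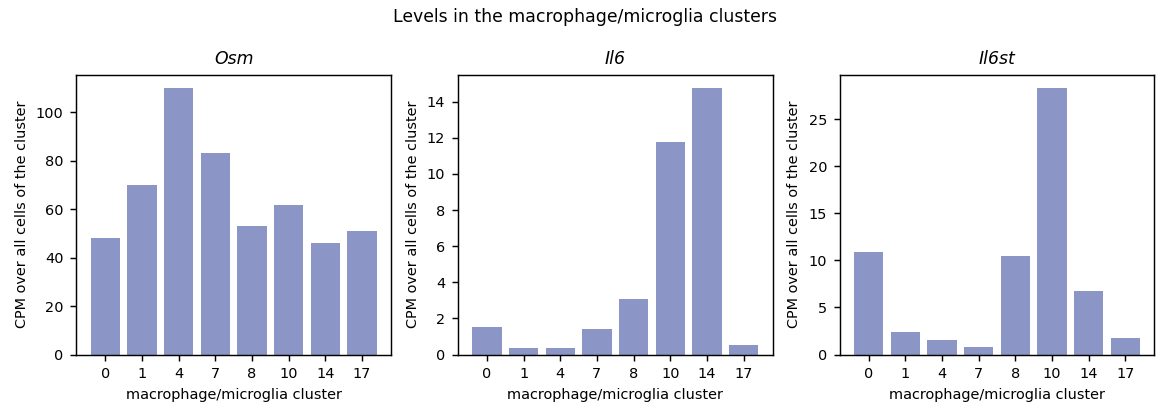
Levels of Osm, Il6 and Il6st in each cluster of macrophages/microglia, with bars for the CPM over all cells of a cluster. Il6 stands highest in clusters 14 and 10 (14.8 and 11.8 CPM) and Il6st in cluster 10 (28.3 CPM). Severe 2 gave 86.9% of the cells of cluster 14 and sham 2 gave 85.1% of those of cluster 10.

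In fibroblasts all 9 members were tested, and none was called in any of the 4 comparisons by edgeR or by DESeq2. An unadjusted p under 0.05 was found for 2, 1 and 5 members in the mild, moderate and severe against the sham group and for 3 in the severe against the mild group. Of all genes tested, 0.433% were called in the mild, 1.81% in the moderate and 2.16% in the severe against the sham group, and 0.892% in the severe against the mild group. These shares are by adjusted p, and the shares of all genes with an unadjusted p under 0.05 are not given here. Osmr had a log2 fold change of -1.83 ± 0.46 in the mild and -1.75 in the moderate against the sham group (adjusted p = 0.0875 and 0.0799). Stat3 was at 120 and 113 CPM in the sham, 90.6 and 92.3 in mild, 98.9 and 101 in moderate and 48.6 and 47.6 in severe libraries. The severe libraries were the lowest of Stat3, with a log2 fold change of -0.94 against the sham group (adjusted p = 0.0989). Sham 2 brought 28 fibroblasts to these comparisons, few enough that single UMIs of Osmr, Lifr and Il6 set its levels.

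In oligodendrocyte precursors, glial cells that divide and renew oligodendrocytes, 8 members were tested and Il6 did not pass the filter. The level of Osmr was 14.7 and 13.7 CPM in the sham (9 and 10 UMIs), 3.44 and 4.27 in mild, 3.92 and 4.99 in moderate and 5.15 and 4.68 in severe libraries. Both sham libraries lay above the 6 injured ones. Osmr fell by 1.83 ± 0.45 on the log2 scale in the mild (adjusted p = 0.0360) and by 1.64 ± 0.44 in the moderate group (adjusted p = 0.0388) against the sham group, and had -1.21 in the severe group (adjusted p = 0.106). Socs3 was at 1.63 and 2.74 CPM in the sham (1 and 2 UMIs), 5.67 and 8.63 in mild, 11.9 and 13.8 in moderate and 5.15 and 1.82 in severe libraries. The moderate libraries were the highest, and Socs3 rose by 2.53 ± 0.71 on the log2 scale against the sham group (adjusted p = 0.0467). These are 1 of 8 members called in the mild (6.89% of all genes), 2 of 8 in the moderate group (8.61%) and none by edgeR or DESeq2 in the severe group against the sham group (11.3%), and none by either in the severe against the mild group (4.92%). In the latter pair of comparisons 2 and 1 members had an unadjusted p under 0.05, with no share of all genes given at that threshold. Lifr was at 8.15 and 2.74 CPM in the sham (5 and 2 UMIs), 0.608 and 1.12 in mild, 1.79 and 2.06 in moderate and 2.21 and 1.17 in severe libraries. All 6 injured libraries lay below both sham libraries, but no difference from the sham group was called, with log2 fold changes of -2.47 ± 0.81, -1.42 ± 0.73 and -1.54 ± 0.82 (adjusted p = 0.0806, 0.242 and 0.224).

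The precursor calls depended on the setting as well. Over 14 alternatives Osmr was called in 6 in the mild and 4 in the moderate against the sham group, and Socs3 in 6, with adjusted p up to 0.231, 0.156 and 0.160. All kept their sign in the 14. Without sham 1 none of them was called (adjusted p = 0.116 and 0.128 for Osmr and 0.160 for Socs3). The sham libraries had 79 precursors each. In the precursors of sham 1 the summed level of neutrophil markers was 6234 CPM, against 67.7 to 397 in the other libraries, and that of fibroblast markers was 4487 CPM, against 530 in sham 2 and 62.2 to 617 in the injured libraries. Their part in the level of Osmr, a gene that fibroblasts have at 53.7 CPM in sham 1, was not tested. Osmr was at 13.7 CPM in the precursors of sham 2, and the part of RNA from other cells in that level was not tested either.

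**Figure D4:**
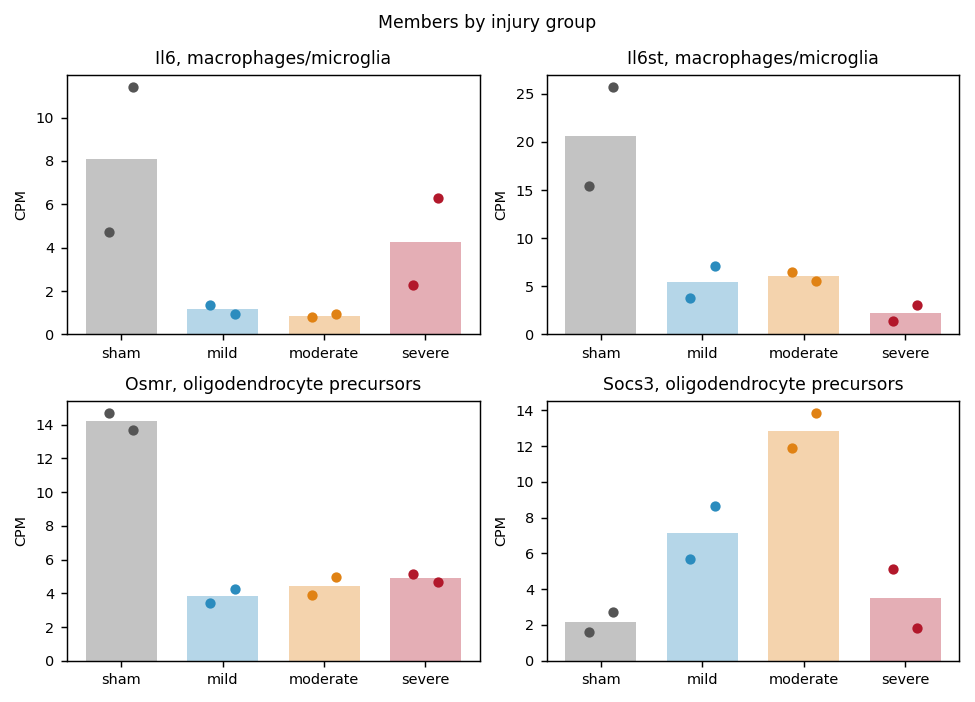
Levels by injury group of Il6 and Il6st in macrophages/microglia and of Osmr and Socs3 in oligodendrocyte precursors, in CPM, with bars for the mean of the 2 libraries of a group and points for the libraries. Il6st in macrophages/microglia is lower in all 6 injured libraries than in both sham libraries, and so is Osmr in oligodendrocyte precursors.

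Among 12 other ligands and receptors of the family, 9 were tested against macrophages/microglia. In fibroblasts 6 of the 9 were higher and 1 was lower, where 61.7% of all genes tested differed, with a median log2 fold change of 2.55 against -0.08 over all genes tested. In oligodendrocyte precursors 5 were higher and 3 lower of 9 (68.1% of all genes, median 1.69 against -0.09), and in endothelial cells 3 were higher and 2 lower (45.1%, median 1.12 against -0.16). In neutrophils 4 were higher and 2 lower (67.8%, median 1.58 against -0.13), and in T cells/NK cells 3 higher and 2 lower (53.4%, median 0.15 against -0.14). In fibroblasts Il11, a ligand of the family, was higher than in macrophages/microglia by 6.76 ± 0.47 on the log2 scale (SE, adjusted p = 1.9e-20) and Cntfr, the receptor of ciliary neurotrophic factor, by 5.56 ± 0.44 (adjusted p = 4.37e-16). In oligodendrocyte precursors Cntfr was higher by 7.23 ± 0.42 (adjusted p = 4.87e-21). Il27ra, the receptor of interleukin 27, was higher in T cells/NK cells by 8.70 ± 0.50 (adjusted p = 1.29e-21). Ebi3, a subunit of interleukins 27 and 35, was lower in fibroblasts, precursors, endothelial cells and T cells/NK cells and higher in neutrophils, by 1.83 ± 0.28 (adjusted p = 6.68e-08). By level, Cntf, the ciliary neurotrophic factor itself, had 107 ± 28.7 CPM in oligodendrocytes. Il11 had 60.6 ± 77.2 CPM in fibroblasts, 56.5 ± 81.5 CPM in astrocytes and 11.9 ± 10.5 CPM in oligodendrocyte precursors, so it was not particular to fibroblasts.

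Between groups, 2 of 7 of these genes tested in macrophages/microglia rose in the severe against the sham group, where 7.61% of all genes were called. Clcf1, a cardiotrophin-like ligand, was at 3.16 and 1.16 CPM in the sham, 3.47 and 2.49 in mild, 1.92 and 9.97 in moderate and 21.0 and 36.4 in severe libraries, and rose by 4.42 ± 0.84 on the log2 scale (adjusted p = 0.0257). Ebi3 was at 25.8 and 5.99 CPM in the sham, 17.4 and 13 in mild, 10.7 and 25.0 in moderate and 64.9 and 58.3 in severe libraries, and rose by 2.58 ± 0.61 (adjusted p = 0.0458). In both genes the 2 severe libraries lay above all others. Most macrophages/microglia of these 2 libraries were of clusters 7 and 14, which held few of those of the other libraries. Whether the levels differed within a cluster was not tested for Clcf1 and Ebi3, nor for Cish and Pim1 below. Over the alternatives Clcf1 was called in 10 of 15 and Ebi3 in 6 of 15, with adjusted p up to 0.0965 and 0.145, and neither changed its sign.

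**Figure D5:**
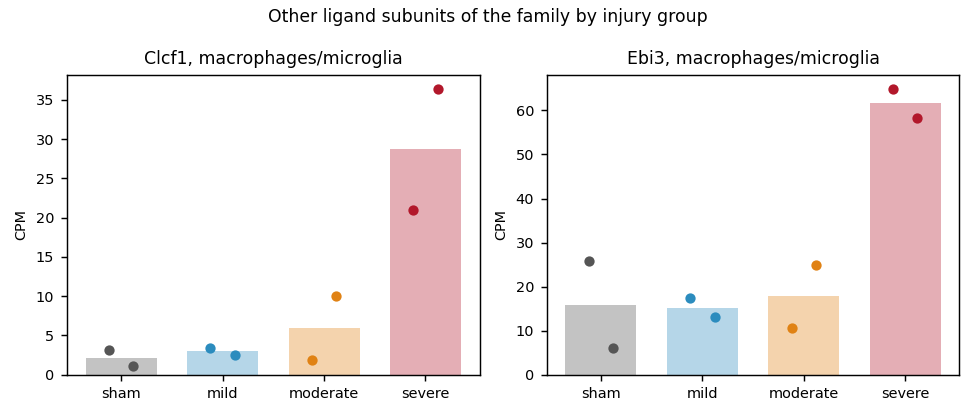
Levels of the ligand subunits Clcf1 and Ebi3 in macrophages/microglia by injury group, in CPM, with bars for the mean of the 2 libraries of a group and points for the libraries. Both are highest in the 2 severe libraries.

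Of 17 genes that carry or limit the signal of Janus kinases and STAT proteins, 16 were tested in macrophages/microglia. Cish, an inhibitor of the same family as Socs3, rose in the severe against the sham group by 2.23 ± 0.52 on the log2 scale (adjusted p = 0.0444). Against the mild group Cish rose by 3.83 ± 0.53 (adjusted p = 0.0147), and the other 15 did not pass the test in either. Of all genes tested, 7.61% were called in the severe against the sham group and 2.34% in the severe against the mild group. In oligodendrocyte precursors Jak2, a kinase of the receptors, fell by 1.31 in the severe against the sham group (adjusted p = 0.0369). It was the 1 of 16 called there, where 11.3% of all genes tested were. Cish was called in 8 and 11 of 15 alternatives (adjusted p up to 0.155 and 0.172) and Jak2 in 7 of 14 (up to 0.287), each with its sign kept. The fall of Jak2 was lost without sham 1 (adjusted p = 0.201), whose precursors carried the neutrophil and fibroblast markers given above, and their part in it was not tested. In neutrophils 11 of the 16 tested were higher and 1 was lower than in macrophages/microglia, where 67.8% of all genes differed, with a median log2 fold change of 0.81 against -0.13 over all genes. The higher ones included Socs2 (2.24 ± 0.46), Stat5b (2.13 ± 0.24) and Jak2 (1.55 ± 0.24), and the lower one was Jak3 (-1.43 ± 0.27). In fibroblasts 3 of 16 were higher and 7 lower (61.7% of all genes differed), with a median of -0.37 against -0.08, led by the phosphatase Ptpn6 at -5.16 ± 0.27.

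Of 24 genes known as targets of STAT3, 21 were tested in macrophages/microglia. Cp, which encodes ceruloplasmin, and Bcl6, a repressor of transcription, fell in the mild against the sham group. The log2 falls were 1.42 and 1.30 (adjusted p = 0.0334 and 0.0475). They were the 2 of 21 called there, where 6.3% of all genes tested were. Pim1, a kinase, rose in the moderate by 2.58 and in the severe group by 2.51 (adjusted p = 0.0375 and 0.0177). It was the 1 of 21 called in each, where 1.6% and 7.61% of all genes tested were. In oligodendrocyte precursors Vim, an intermediate filament, rose by 2.48, 2.24 and 2.78 after mild, moderate and severe injury (adjusted p = 0.0254, 0.0264 and 0.0118), and Hif1a, the hypoxia-inducible factor, fell by 0.90, 0.97 and 1.25 (adjusted p = 0.0431, 0.0270 and 0.0105). In the severe group Fgl2 and Cebpb also fell there, by 2.51 and 1.54 (adjusted p = 0.0403 and 0.0487). Of 19 targets tested in precursors, 1 rose and 1 fell in the mild and in the moderate group, where 6.89% and 8.61% of all genes were called. In the severe group 1 rose and 3 fell, where 11.3% of all genes were called. In fibroblasts the 1 of 20 targets called was Gfap, the astrocyte filament, which fell in the severe group by 3.65 (adjusted p = 0.0484). Of all genes tested, 2.16% were called in that comparison. Gfap was called in 4 of 14 alternatives and had the other sign without sham 1 (log2 fold change 5.15). The other target calls kept their sign in all alternatives. Of these, Pim1 was called in 10 and 13 of 15, Vim in 11 to 13 and Hif1a in 4 to 13 of 14, Cp and Bcl6 in 7 and 6 of 15, and Fgl2 and Cebpb in 9 and 7 of 14. Fgl2 in precursors was at 86.4 CPM in sham 1 and at 5.20 to 24.6 CPM in the other 7 libraries, and without sham 1 its log2 fold change was -0.04 (adjusted p = 0.981). Without sham 1 the calls of Cebpb (adjusted p = 0.196) and of Hif1a after mild injury (adjusted p = 0.0815) were lost too, while those of Vim in all 3 groups and of Hif1a in the moderate and severe groups held. The part of the neutrophil and fibroblast markers of sham 1 precursors in these calls was not tested. Against macrophages/microglia, 12 of 20 targets were higher and 5 lower in neutrophils, where 67.8% of all genes differed (median log2 fold change of 1.35 against -0.13 over all genes). Lcn2, lipocalin 2 and itself a marker used to name neutrophils, was higher by 4.76 ± 0.37, Cebpd by 3.0 ± 0.34 and Pim1 by 2.53 ± 0.25, and Cp, Ccnd1 and Myc were lower. In fibroblasts 5 of 20 were higher and 10 lower (61.7% of all genes differed, median -0.82 against -0.08), with Timp1, an inhibitor of matrix proteases, higher by 4.12 ± 0.43 (adjusted p = 3.85e-13), and in oligodendrocyte precursors 3 were higher and 13 lower (68.1% of all genes differed, median -2.02 against -0.09).

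Genes most like a member were sought by Pearson's r of the mean level over the 11 named cell types among 13570 genes, as a description, since the types share libraries and differ in depth. For Osm these were Trem3 (0.987), Igsf6 (0.987) and the neutrophil chemoattractant Cxcl2 (0.981). For Osmr they were Nrep (0.984), Lama4 (0.979) and Col4a1 (0.977), the latter 2 of which encode parts of the basement membrane. For Il6 they were Colec12 (0.968), Cped1 (0.958) and Sned1 (0.952), and for Il6r Nfkbid (0.978), Lyn (0.963) and Arhgap25 (0.963). For Il6st they were Zfp46 (0.976), Afdn (0.960) and Tmem205 (0.95).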

How the data were processed

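Droplet-based single-cell RNA sequencing of rat spinal cord gave 8 libraries, 2 for each of the groups sham, mild, moderate and severe, as the labels give them. The authors deposited raw UMI counts per gene and cell, made with Cell Ranger (5.0.1 in the file headers) on Rnor_6.0, without normalization. The members, gene lists and tests were chosen with earlier results of these data known.

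Cells with over 10% mitochondrial UMIs, the 7.7% with the highest Scrublet doublet score (scanpy 1.11.5) and those outside 2 SD of the UMIs or genes of their library were removed. Clustering used Seurat 5.3.0 (R 4.3.3) with 4000 variable genes, 15 components and a resolution of 0.4, without batch correction. The members and lists (58 of 62 genes measured) were left out of the variable genes, which would have held 28 of them, and stayed in them in an alternative. Clusters were named by 220 markers, 203 of them measured. Clusters that scored as monocytes were joined with macrophages/microglia after they had been seen. Without this join 13824 cells scored as monocytes and 11777 as macrophages/microglia.

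Counts summed over the cells of a type and library were tested by edgeR 4.0.16 (filterByExpr, TMM, quasi-likelihood test, Benjamini-Hochberg adjustment at 0.05). Between types, all named types entered 1 fit with the library as a term. Between groups, the 8 libraries entered 1 fit per type. Genes named are the members, at most 6 called genes of each list per comparison, those with the largest fold change, and the 3 genes most like a member. Some results are not reported here, though counts and adjusted p-values include them. Cntf and Il11 were named after their values were seen. Alternatives were DESeq2 1.42.0, no filter on low counts, no doublet removal, a resolution of 0.8, at least 100 cells, the replicate number as a block and each library left out. Those chosen after seeing the data left out the monocyte-scored clusters or the low-UMI neutrophil cluster. Of these steps, only the edgeR test between groups was tried on simulated counts, made after those of macrophages/microglia, and its outcome is not given here. The changed genes in it had higher mean levels than Il6, Il6st, Socs3 and Lif have in these cells. Same-numbered libraries did not deviate together (correlations of -0.242 to 0.244). Shares, intervals and figures used scipy 1.17.1, numpy 2.4.6, pandas 2.3.3 and matplotlib 3.10.9.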

Additional observations from a re-analysis of the deposited data

Results flagged for a closer look

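In 3 cases 2 groups differed one way in every library of one cell type and the other way in every library of another. These differences between cell types were not tested. How often this happens over all genes was not counted, so the 3 cases are not read as a result about the members. Il6 in the moderate against the sham group differed by -7.21 CPM in macrophages/microglia and by 0.15 CPM in oligodendrocyte precursors, where it rests on 4 UMIs. Il6 in the severe against the mild group differed by 3.12 CPM in macrophages/microglia and by -14.5 CPM in fibroblasts. Il6st in the mild against the sham group differed by -15.1 CPM in macrophages/microglia and by 5.34 CPM in oligodendrocyte precursors.

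The 2389 cells of unnamed clusters, which entered no comparison, held UMIs of members above the limit of 3 counts, with 183 of Stat3, 102 of Osm, 54 of Il6r, 27 of Il6st, 19 of Socs3 and 16 of Il6.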

How the results depend on the processing

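Counts of members called changed with the settings. In macrophages/microglia the main counts were 1, 0, 1 and 0 for mild, moderate and severe against sham and severe against mild. DESeq2 gave 2, 2, 1 and 1, no filter on low counts gave 2, 2, 2 and 1, leaving out monocyte-scored clusters gave 0, 0, 0 and 1. In fibroblasts no filter gave 2, 1 and 4 for mild, moderate and severe against sham, and a resolution of 0.8 gave 1 in each. In oligodendrocyte precursors (1 and 2 in mild and moderate) no doublet removal gave 0 and 1, and DESeq2 gave 1 in moderate. The fit with the replicate number as a block, which does not pair these samples, gave 0 for mild in macrophages/microglia and 0 for both in precursors. The number of all genes called moved as well, in 115 comparisons of a setting with the main one, and stayed about the same in 133. The share of all genes called in each setting is not given here, so these counts of members cannot be set against it. The cause of these changes was not tested. Leaving out each library gave ranges of 0 to 2 for mild and moderate, 0 to 3 for severe against sham and 0 to 1 for severe against mild in macrophages/microglia. It gave 0 to 1 for each of the 3 injured groups in fibroblasts and 0 to 1 for mild and moderate in precursors. Against macrophages/microglia it gave 3 to 4 in T cells/NK cells, 5 in endothelial cells, 6 to 7 in fibroblasts, 4 to 5 in neutrophils and 5 to 8 in precursors. No called member turned its direction. Lif and Lifr had 315 and 445 UMIs in all kept cells, so counting error limits their comparison between groups.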

Other observations

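Cell types outside the group comparisons also held members, and their differences between groups were not tested. In oligodendrocytes Stat3 was at 153 and 84.4 CPM in the sham libraries, 139 and 163 after mild, 182 and 237 after moderate and 119 and 101 after severe injury. In dendritic cells, which had under 20 cells in both sham libraries, Stat3 was at 162 and 170 CPM after mild, 197 and 207 after moderate and 141 and 100 after severe injury. In both types the 2 moderate libraries were the highest and the 2 severe libraries lay below all mild and moderate ones. Il6st in oligodendrocytes had the same order among the injured libraries, with 22.5 and 28.1 CPM after mild, 33.3 and 53.3 after moderate and 18.3 and 12.3 after severe injury, and with 23.2 and 13.7 CPM in the sham libraries. How often such an order occurs over all genes was not counted, so these orders are not read as a result about the members.

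Astrocytes had Il6st at 124 CPM in sham 1 (18 UMIs in 23 cells), 14.6 and 13.8 after mild, 21.1 and 25.4 after moderate and 29.6 and 15.6 after severe injury, and sham 2 had 9 astrocytes, too few for a level. All 6 injured libraries lay below the 1 sham library. Lifr had no UMI in the astrocytes of these 7 libraries, and the 2 astrocytes with a Lifr UMI were among the 9 of sham 2.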
